A study of Mus musculus with 11 samples.

Results

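The genes described here encode the machinery that cuts, carries and loads peptides for major histocompatibility complex (MHC) class I. They are Psmb8, Psmb9, Psmb10, Tap1, Tap2, Tapbp, B2m, Nlrc5 and Erap1, 9 of the 18193 genes measured by probe sets of 1 symbol. They were taken by name from the class I processing pathway, with earlier results of these data known, and 16 probe sets measured them. All 9 passed the filter on low values with the probe set of highest mean, on which the tests were run. The cells were CD8+ T cells of pmel-1 transgenic mice, which carry a transgenic receptor for gp100, a protein of pigment cells. They were enriched as CD44- (naive) or CD44+ (central memory) cells, so origin rests on 1 surface marker. Every culture was started on plate-bound antibodies to CD3 and CD28, later met allogeneic feeder cells carrying a gp100 peptide, and lasted 2 weeks in interleukin 2 (10 cetus units). The groups differed in origin and in whether CD3 and CD28 were engaged once more for 4 h before RNA extraction. There were 3 arrays without and 3 with that stimulation for memory-derived cells, and 2 without and 3 with it for naive-derived cells, from 3 independent experiments.

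Class I molecules show fragments of a cell's own proteins to CD8+ T cells. The proteasome makes the fragments, and its catalytic subunits can be exchanged for inducible ones, giving the immunoproteasome, a form that lymphocytes carry constitutively and that interferon gamma raises in many other cells. The transporter TAP moves peptides into the endoplasmic reticulum, where tapasin and its partners load them and aminopeptidases trim them. A T cell is thus not only the reader of class I complexes but also displays its own.

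In the RefSeq annotation (GRCm38.p6), Psmb8, Psmb9, Tap1, Tap2 and Tapbp lie on chromosome 17, Psmb10 and Nlrc5 on chromosome 8, B2m on chromosome 2 and Erap1 on chromosome 13. Promoter windows of 300 bases, 250 before and 50 after the start, were at hand for 7 of the 9 genes. Those of Tap1 and Psmb9 run in opposite directions, share 275 bases and have starts 226 bases apart. The window of Tap1 therefore holds both starts. Psmb8 starts 10639 bases from Tap1. Shown are the window shared by Tap1 and Psmb9 (chr17:34187306-34187605, + strand of Tap1) and those of B2m (chr2:122147437-122147736, + strand) and Erap1 (chr13:74639603-74639902, + strand), whose genes did not pass with the others below. Capitals mark matches to the motifs named after the sequences.
Tap1: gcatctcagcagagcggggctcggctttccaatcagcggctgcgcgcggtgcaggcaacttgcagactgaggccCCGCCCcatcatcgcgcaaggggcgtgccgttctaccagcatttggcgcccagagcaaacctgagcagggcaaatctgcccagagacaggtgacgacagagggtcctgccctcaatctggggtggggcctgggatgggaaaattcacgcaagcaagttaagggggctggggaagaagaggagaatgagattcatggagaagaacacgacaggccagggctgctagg
B2m: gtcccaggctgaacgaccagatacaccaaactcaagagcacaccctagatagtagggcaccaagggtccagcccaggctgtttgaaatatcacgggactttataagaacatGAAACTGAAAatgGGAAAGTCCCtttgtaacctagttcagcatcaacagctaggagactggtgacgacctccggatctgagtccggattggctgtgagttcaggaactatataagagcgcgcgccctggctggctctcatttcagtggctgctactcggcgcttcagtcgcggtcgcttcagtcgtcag
Erap1: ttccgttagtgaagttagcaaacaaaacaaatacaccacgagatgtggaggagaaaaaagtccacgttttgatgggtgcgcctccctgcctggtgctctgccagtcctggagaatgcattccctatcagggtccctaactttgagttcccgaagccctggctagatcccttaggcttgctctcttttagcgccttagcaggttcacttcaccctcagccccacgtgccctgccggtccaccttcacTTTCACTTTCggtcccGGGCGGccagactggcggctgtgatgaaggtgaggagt

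These motifs were searched on both strands of all 32851 windows in the table. The interferon-stimulated response element core stood in 3.44% of all windows and in 2 of the 7 member windows, B2m from base -139 and Erap1 from base -4. The NF-kappaB motif stood in 1.63% of windows and, among members, in B2m from base -126, on the opposite strand. The GC box GGGCGG stood in 35.7% of windows and in those of Erap1, Psmb9, Tap1 and Tapbp, the match of Psmb9 and Tap1 being the same bases. The core of the cyclic AMP response element, TGACGT, stood in 7.51% of windows and in 0 of the 7. A match is a run of letters and not a measured site.

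The labelled cell type was checked on its markers. All 7 CD8 T cell markers measured (such as Cd8a and Cd3d) lay above the filter level of 1.54 on every array, while Cd4 failed the filter. The summed linear level of those 7 was 3713 to 4039 on memory-derived unstimulated and 2599 to 2693 on memory-derived stimulated arrays, and 3714 to 4016 and 2869 to 3269 on the naive-derived ones. Of 12 markers of macrophages and dendritic cells, which allogeneic feeders could hold, 8 lay above the filter level on all arrays of a given group. They were not the same 8 in each group. Cd14 was among them in both memory-derived groups only, and Flt3 in both naive-derived groups only. The summed level of all 12 was 178 to 211 and 147 to 151 in memory-derived cells without and with stimulation. In naive-derived cells it was 87.8 to 121 and 83.8 to 121. Itgax stood at 5.99 to 6.65 on memory-derived and at 4.20 to 4.80 on naive-derived unstimulated arrays, Cd68 at 5.12 to 5.37 and 3.32 to 3.82, and Fcer1g at 5.20 to 5.34 and 3.68 to 5.05. Cd14 had means of 2.71 and 1.51 on these arrays. The other markers of this list went the other way, with higher means on naive-derived unstimulated arrays. Cd74 had means of 2.44 on memory-derived and 3.24 on naive-derived unstimulated arrays, Csf1r 2.46 and 2.80. For Adgre1 they were 1.69 and 2.00, and for H2-Ab1 2.87 and 3.22. Lyz2 lay between 0.83 and 1.99 on all arrays, and H2-Aa between 0.93 and 1.85. The 5 measured markers of other T cells and NK cells summed to 15.4 to 20.1 over all arrays, the 6 of B cells to 13.8 to 18.4, and the 5 of erythroid cells and granulocytes to 9.92 to 14.1. The 3' minus 5' difference of beta actin, a sign of RNA quality, was 0.88 to 1.17, 1.43 to 1.73, 1.54 to 1.59 and 1.93 to 2.60 (log2) for memory-derived cells without and with stimulation and for naive-derived cells without and with it. The part of these differences in the results below was not tested.

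The comparison of memory-derived cells with and without the final stimulation asked how restimulation changes class I processing genes. Stimulated cells had lower levels of all 3 immunoproteasome subunits, both TAP subunits, tapasin and the transactivator Nlrc5. The falls were 2.50-fold for Psmb8, 3.43-fold for Psmb9, 2.88-fold for Psmb10, 3.23-fold for Tap1, 2.17-fold for Tap2, 1.77-fold for Tapbp and 1.57-fold for Nlrc5 (n = 3 and 3). B2m and Erap1 did not pass. Thus 7 of 9 members fell and 0 rose, where 17.3% of all 14795 genes fell and 14.3% rose (31.6% together). The median difference was -1.12 over the members and 0.00 over all genes. In these bulk cultures fewer expressing cells and less RNA per cell cannot be told apart.

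**Figure D1:**
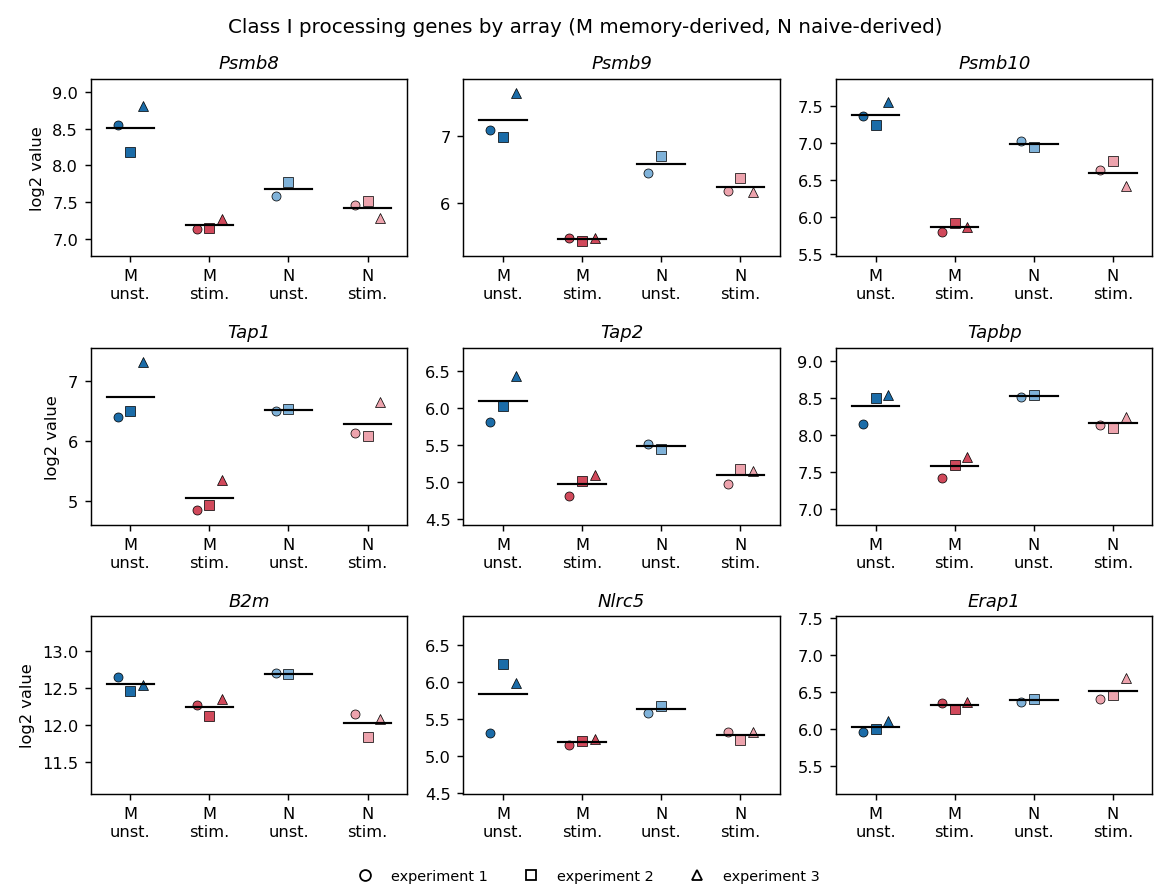
Log2 value of each of the 9 genes (vertical axes, each panel with its own range) on every array, by group (M memory-derived, N naive-derived; unst. unstimulated, stim. stimulated). Marker shapes give the experiment and bars the group mean; in the panels of Psmb9 and Psmb10 the 3 memory-derived stimulated arrays lie below every other array.

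The immunoproteasome subunits replace the constitutive catalytic subunits and alter where the proteasome cuts. Psmb9, which encodes the beta-1i subunit, stood at 7.09, 6.98 and 7.63 (log2) on the memory-derived unstimulated arrays of experiments 1, 2 and 3 and at 5.47, 5.42 and 5.47 on the stimulated ones. The groups were separated by 1.51, and the log2 difference was -1.78 (SE 0.17, adjusted p = 8.61e-05). Psmb10, the beta-2i subunit, went from 7.36, 7.24 and 7.55 to 5.79, 5.92 and 5.87, a difference of -1.52 (SE 0.13, adjusted p = 5.11e-05). Psmb8, the beta-5i subunit, stood at 8.54, 8.18 and 8.81 and at 7.14, 7.15 and 7.27, a difference of -1.32 (SE 0.16, adjusted p = 0.000296). Its other probe set, of lower signal, differed by -0.85 (adjusted p = 0.00148). For each of the 3 genes the highest stimulated array lay below the lowest unstimulated one, and the stimulated arrays lay closer together (SD 0.07, 0.03 and 0.06 for Psmb8, Psmb9 and Psmb10) than the unstimulated ones (SD 0.32, 0.35 and 0.16). The fall was seen in each of the 3 experiments, from -1.02 for Psmb8 in experiment 2 to -2.16 for Psmb9 in experiment 3.

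The peptide transporter fell as well. Tap1, which pairs with Tap2 to form TAP, stood at 6.40, 6.51 and 7.31 without and at 4.86, 4.94 and 5.35 with stimulation, a difference of -1.69 (SE 0.25, adjusted p = 0.000728). Tap2 stood at 5.80, 6.03 and 6.43 and at 4.81, 5.01 and 5.10, a difference of -1.12 (SE 0.16, adjusted p = 0.000703). For both genes the unstimulated array of experiment 3 was the highest of the 11. Of the 4 Tap1 probe sets, 2 lay at or below the filter level on at least 10 of 11 arrays, and the other differed by -0.45 (adjusted p = 0.193). The mean of all 4 gave -0.54 for Tap1 (adjusted p = 0.0117).

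Tapasin, the product of Tapbp, holds empty class I molecules at TAP while peptides are exchanged. Tapbp stood at 8.15, 8.50 and 8.55 without and at 7.42, 7.60 and 7.71 with stimulation. The difference was -0.82 (SE 0.14, adjusted p = 0.00143), and its other probe set gave -0.73 (adjusted p = 0.00664). Nlrc5, a nucleotide-binding protein that activates transcription of class I genes, stood at 5.31, 6.24 and 5.99 and at 5.14, 5.20 and 5.23. Its difference of -0.66 (SE 0.20, adjusted p = 0.0277) rested on a narrow gap of 0.07 between the groups. The Nlrc5 call was lost without memory-derived unstimulated array 2 (-0.46, adjusted p = 0.0874) or 3 (-0.58, adjusted p = 0.0935). It was also lost without memory-derived stimulated array 1 (-0.63, adjusted p = 0.077), 2 (-0.66, adjusted p = 0.0692) or 3 (-0.68, adjusted p = 0.0583), and with array weights Nlrc5 differed by -0.35 (adjusted p = 0.157). The other 6 calls held without any 1 array.

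The remaining genes, B2m and Erap1, did not pass in the main fit. B2m, which encodes beta-2 microglobulin, the light chain of every class I molecule, stood at 12.66, 12.46 and 12.55 without and at 12.28, 12.12 and 12.36 with stimulation. The B2m difference of -0.30 (SE 0.13, 95% interval -0.58 to -0.02) did not pass (adjusted p = 0.0987), and its other probe set gave -0.18 (adjusted p = 0.272). With array weights B2m passed (-0.38, adjusted p = 0.017). Erap1, the aminopeptidase that trims peptides in the endoplasmic reticulum, had the only difference above 0. Its values ran from 5.96 to 6.11 without and from 6.26 to 6.36 with stimulation, and the Erap1 difference of 0.30 (SE 0.12, adjusted p = 0.0711) did not pass. Erap1 passed with the mean of both probe sets (0.36, adjusted p = 0.0338), with array weights (0.34, adjusted p = 0.0181) and with the trended, robust prior (0.30, adjusted p = 0.0393). Groups did not overlap for any of the 9 genes, 8 lower and 1 higher with stimulation, where 24.7% and 21.9% of all genes had such groups.

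Each inducible subunit has a constitutive counterpart that it displaces during assembly: Psmb5 for Psmb8, Psmb6 for Psmb9 and Psmb7 for Psmb10. None of these counterparts passed in memory-derived cells. Psmb5 stood at 7.40, 7.45 and 7.23 without and 7.49, 7.53 and 7.47 with stimulation, a difference of 0.14 (95% interval -0.11 to 0.39, adjusted p = 0.397). Psmb6 differed by 0.05 (-0.21 to 0.30, adjusted p = 0.801) and Psmb7 by 0.52 (0.047 to 1.00, adjusted p = 0.0909). With the replicate block (0.52, adjusted p = 0.0447) or array weights (0.54, adjusted p = 0.049) Psmb7 passed, as higher. The intervals of the inducible subunits, -1.67 to -0.97 for Psmb8, -2.15 to -1.41 for Psmb9 and -1.81 to -1.23 for Psmb10, lay wholly below those of their counterparts. The difference between members of a pair was not tested.

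**Figure D2:**
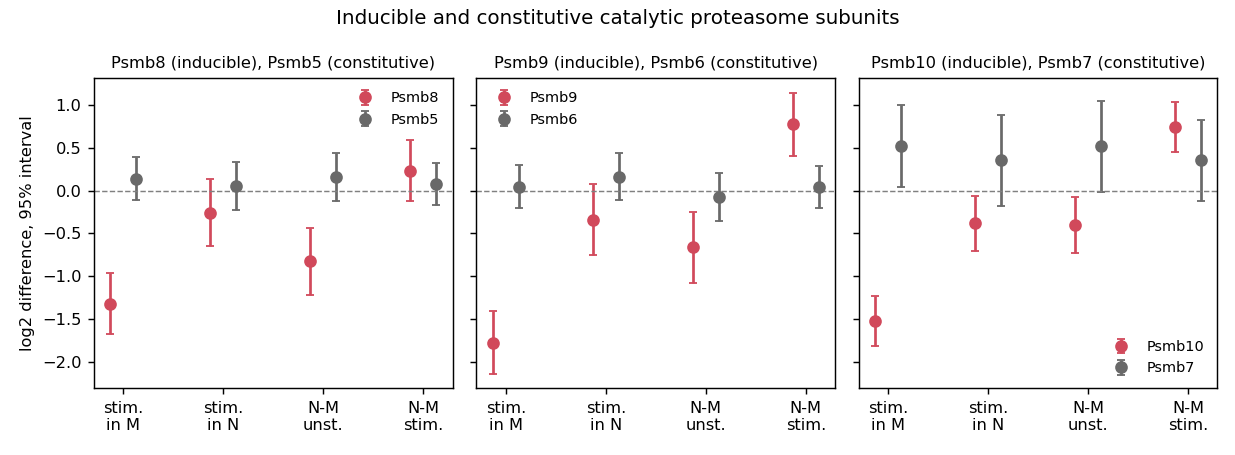
Log2 difference (vertical axis) with its 95% interval for each inducible subunit and its constitutive counterpart in 4 comparisons: stimulated minus unstimulated in memory-derived (M) and naive-derived (N) cells, and naive-derived minus memory-derived without and with stimulation. In memory-derived cells Psmb8, Psmb9 and Psmb10 lie between -1.78 and -1.32, and Psmb5, Psmb6 and Psmb7 between 0.05 and 0.52.

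In naive-derived cells the same stimulation gave differences of which none passed. Of the 9 members 0 were called by limma, where 0.0135% of all genes were. An unadjusted p below 0.05 was seen for 3 members (Psmb10, Tapbp and B2m) and for 1252 of all 14795 genes. The unstimulated values of Psmb8 were 7.58 and 7.78, beside stimulated values of 7.47, 7.52 and 7.28. Its difference was -0.26 (95% interval -0.65 to 0.14, adjusted p = 0.764). The second Psmb8 probe set, of lower signal, differed by more, -0.52 (adjusted p = 0.437). Psmb9 went from 6.45 and 6.69 to 6.18, 6.36 and 6.16, a difference of -0.34 (-0.75 to 0.08, adjusted p = 0.665). For Psmb10, values of 7.03 and 6.94 stood beside 6.63, 6.76 and 6.42, a difference of -0.38 (-0.71 to -0.06, adjusted p = 0.522). The 3 subunits were thus lower with stimulation on every array, by gaps of 0.06 to 0.18 between the groups, without passing.

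Tap1 overlapped between the naive-derived groups, at 6.50 and 6.54 without and 6.14, 6.09 and 6.66 with stimulation. Its interval was wide (-0.84 to 0.38). The other Tap1 probe set above the filter level differed by -0.56 (adjusted p = 0.646). The differences of Tap2, Tapbp and Nlrc5 were -0.38, -0.37 and -0.35, with adjusted p of 0.605, 0.578 and 0.733. The second Tapbp probe set differed by -0.15 (adjusted p = 0.89). B2m had the largest difference of the 9 in naive-derived cells. It stood at 12.71 and 12.70 without and at 12.15, 11.84 and 12.09 with stimulation, -0.68 (SE 0.14, adjusted p = 0.235). The other B2m probe set did not share it: it stood at 11.17 and 11.03 and at 11.13, 11.13 and 11.14, a difference of 0.04 (adjusted p = 0.972). Erap1 overlapped between the groups (0.13, adjusted p = 0.858), and with the mean of both Erap1 probe sets the sign turned (-0.083, adjusted p = 0.936). Groups did not overlap for 7 members, all lower, where 12.8% of all genes were lower and 13.6% higher in this way. The median difference was -0.35 over the members and 0.01 over all genes.

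Without the final stimulation, naive-derived cells were compared with memory-derived ones to ask what origin alone left behind. Of the 9 members 3 were lower in naive-derived cells and 0 higher, where 14.9% of all genes were lower and 10.9% higher. Psmb8 was lower by 1.77-fold (-0.83, SE 0.18, adjusted p = 0.00715), with 7.58 and 7.78 against 8.54, 8.18 and 8.81. Psmb9 was lower by 1.58-fold (-0.66, SE 0.19, adjusted p = 0.0247) and Tap2 by 1.52-fold (-0.61, SE 0.18, adjusted p = 0.0307), Tap2 standing at 5.52 and 5.44 against 5.80, 6.03 and 6.43. For these 3 genes no naive-derived array reached the lowest memory-derived one. The second Psmb8 probe set differed by -0.31 (adjusted p = 0.188). Psmb10 did not pass (-0.40, adjusted p = 0.0683), although its groups did not overlap either.

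On the tested probe sets the other 5 genes did not pass either. Tapbp stood at 8.51 and 8.54 in unstimulated naive-derived cells, within the memory-derived range of 8.15 to 8.55 (0.13, adjusted p = 0.596). Tap1 differed by -0.22 (adjusted p = 0.619), B2m by 0.15 (adjusted p = 0.5), Nlrc5 by -0.21 (adjusted p = 0.535) and Erap1 by 0.37 (adjusted p = 0.0631). The second Erap1 probe set stood at 5.69 and 5.62 against 4.77, 5.08 and 4.69, a difference of 0.81 that passed (adjusted p = 0.00785). Groups did not overlap for 4 lower members, where 29.0% of all genes were lower in this way, and for 2 higher ones, where 24.4% were.

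These calls leaned on few arrays. Without naive-derived unstimulated array 1, 0 members passed: Psmb8 stood at -0.73 (adjusted p = 0.0681), Psmb9 at -0.54 (adjusted p = 0.172) and Tap2 at -0.65 (adjusted p = 0.107). Without array 2 of that group only Psmb8 passed, with Psmb9 at -0.79 (adjusted p = 0.0619) and Tap2 at -0.57 (adjusted p = 0.151). Without memory-derived unstimulated array 3, Tap2 was lost (-0.44, adjusted p = 0.0663) and the sign of Tap1 turned (0.069). There were also gains: Nlrc5 passed without memory-derived unstimulated array 1 (-0.48, adjusted p = 0.0389) and Psmb10 without array 2 (-0.47, adjusted p = 0.0459). Psmb10 and Erap1 also passed with the trended, robust prior (adjusted p = 0.0353 and 0.0326) and with array weights (adjusted p = 0.0339 and 0.0177). With the replicate block Psmb9 did not pass (-0.61, adjusted p = 0.0584). With control scaling neither Psmb9 (-0.73, adjusted p = 0.0629) nor Tap2 (-0.67, adjusted p = 0.058) did.

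The origins were compared again after the final stimulation. Of the 9 members 4 were higher and 0 lower, where 1.69% of all genes were higher and 2.01% lower (3.7% together). Tap1 was 2.37-fold higher (1.24, SE 0.25, adjusted p = 0.0187), with 6.14, 6.09 and 6.66 against 4.86, 4.94 and 5.35. Psmb9 was 1.71-fold higher (0.78, SE 0.17, adjusted p = 0.0284), with 6.18, 6.36 and 6.16 against 5.47, 5.42 and 5.47. Psmb10 was 1.67-fold higher (0.74, SE 0.13, adjusted p = 0.0107). Tapbp was 1.50-fold higher (0.58, SE 0.14, adjusted p = 0.0415), with 8.13, 8.10 and 8.24 against 7.42, 7.60 and 7.71. In each of the 4 genes the lowest naive-derived array lay above the highest memory-derived one, by 0.39 for Tapbp to 0.74 for Tap1.

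Psmb8, the other immunoproteasome subunit, did not pass here (0.23, 95% interval -0.12 to 0.59, adjusted p = 0.522). Neither did Tap2 (0.12, adjusted p = 0.773), Nlrc5 (0.09, adjusted p = 0.869), Erap1 (0.19, adjusted p = 0.47) or B2m (-0.23, adjusted p = 0.425). The second probe set of Tapbp differed by 0.66 (adjusted p = 0.0539) and that of Tap1 by -0.04 (adjusted p = 0.957), and the mean of all Tap1 probe sets by 0.38 (adjusted p = 0.186). Groups did not overlap for 6 members, all higher, where 11.4% of all genes were higher in this way. With control scaling only Tap1 passed, and Psmb9 (0.69, adjusted p = 0.155), Psmb10 (0.66, adjusted p = 0.133) and Tapbp (0.50, adjusted p = 0.254) did not. Of all genes that passed, 45.6% were higher, against 33.9% after control scaling.

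Single arrays also decided these calls. Psmb9 was lost without any 1 of the 6 stimulated arrays (0.71 to 0.81, adjusted p from 0.0592 to 0.0984). Tap1 was lost without memory-derived stimulated array 1 or 2 or naive-derived stimulated array 3 (1.06 to 1.19, adjusted p from 0.0727 to 0.0815). Psmb10 was lost only without memory-derived stimulated array 1 (0.71, adjusted p = 0.0525). Tapbp was lost without any 1 of the 6 stimulated arrays, either naive-derived unstimulated array or memory-derived unstimulated array 2 (0.51 to 0.65, adjusted p from 0.0506 to 0.163), without the filter (adjusted p = 0.0605) and with every probe set as a feature (adjusted p = 0.0521). The number of members called in this comparison thus ran from 0, without memory-derived stimulated array 1, to 4.

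The interaction term compared the responses of both origins directly. It was positive, meaning a smaller fall in naive-derived cells, for the 3 immunoproteasome subunits. The naive-derived minus memory-derived response was 1.44 for Psmb9 (SE 0.25, adjusted p = 0.0258), 1.14 for Psmb10 (SE 0.20, adjusted p = 0.0252) and 1.06 for Psmb8 (SE 0.24, adjusted p = 0.0455). Thus 3 of 9 members passed upward and 0 downward, where 1.62% of all genes passed upward and 1.09% downward (2.71% together). On the tested probe sets Tap1 had the largest estimate, 1.46 (SE 0.37, adjusted p = 0.0599), and did not pass. Neither did Tap2 (0.73, adjusted p = 0.111), Tapbp (0.46, adjusted p = 0.213), Nlrc5 (0.31, adjusted p = 0.581), B2m (-0.37, adjusted p = 0.268) or Erap1 (-0.18, adjusted p = 0.594). The second Psmb8 probe set gave 0.33 (adjusted p = 0.399), and the mean of both 0.70 (adjusted p = 0.0821). The other Tap1 probe set above the filter level gave -0.11 (adjusted p = 0.892). Over the alternative fits the Tap1 estimate ran from 0.50 to 1.63. The interaction reuses the arrays of the comparisons above and is no separate support for them. Of all genes that passed, 59.6% were positive, against 46.6% after control scaling.

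Under the replicate block 0 members passed: Psmb9 stood at 1.38 (adjusted p = 0.0634), Psmb10 at 1.14 (adjusted p = 0.064) and Psmb8 at 1.02 (adjusted p = 0.1). With control scaling they stood at 1.42 for Psmb9 (adjusted p = 0.0565), 1.12 for Psmb10 (adjusted p = 0.0912) and 1.04 for Psmb8 (adjusted p = 0.141). Psmb8 was lost also without the filter (adjusted p = 0.062). The calls of Psmb9 (1.32 to 1.56, adjusted p from 0.0519 to 0.122) and Psmb10 (1.06 to 1.19, adjusted p from 0.0538 to 0.11) were lost without any 1 memory-derived stimulated or naive-derived unstimulated array and without naive-derived stimulated array 1 or 2. Psmb8 was lost in those 7 cases and without memory-derived unstimulated array 1 or naive-derived stimulated array 3 (0.97 to 1.16, adjusted p from 0.0582 to 0.167). Without memory-derived unstimulated array 2, Tap1 passed (1.58, adjusted p = 0.0372).

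**Figure D3:**
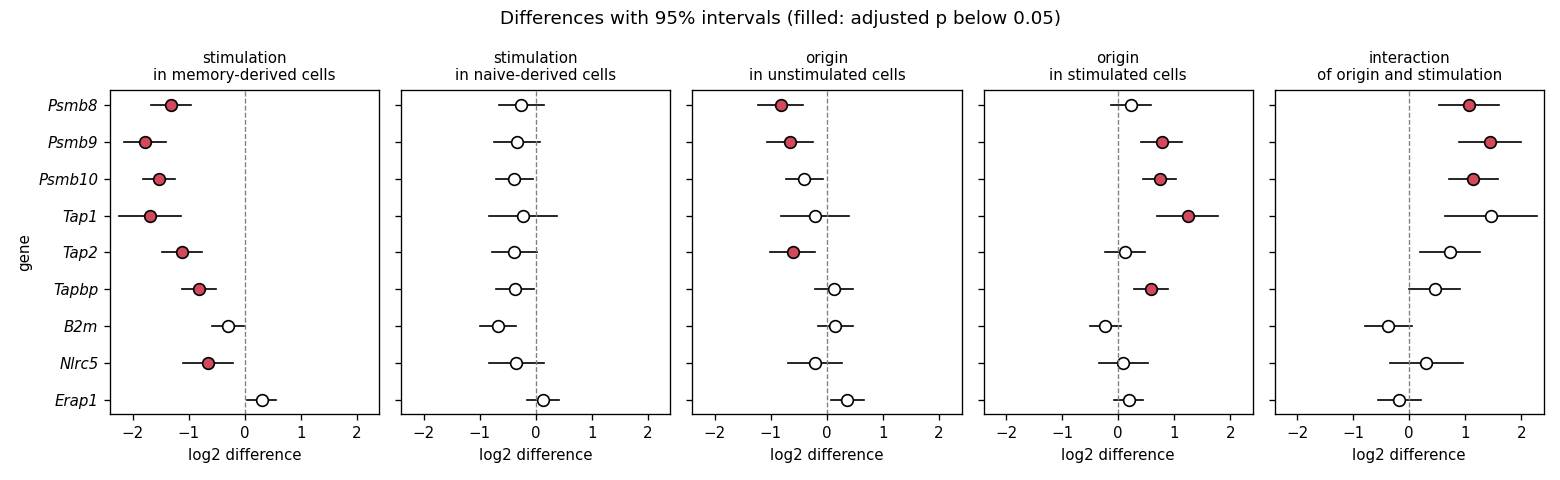
Log2 difference (horizontal axes) with its 95% interval for each of the 9 genes in the 5 comparisons; filled points passed at an adjusted p below 0.05. Stimulation of memory-derived cells filled 7 points, all below 0, and stimulation of naive-derived cells none.

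The order of the group means was the same in 6 of the 9 genes: memory-derived unstimulated, naive-derived unstimulated, naive-derived stimulated, memory-derived stimulated, from high to low. These were Psmb8, Psmb9, Psmb10, Tap1, Tap2 and Nlrc5. On the scale from the memory-derived stimulated mean (at 0%) to the memory-derived unstimulated mean, the naive-derived unstimulated mean lay at 37.3% for Psmb8, 45.5% for Tap2, 62.7% for Psmb9, 67.5% for Nlrc5, 73.7% for Psmb10 and 87.2% for Tap1. The naive-derived stimulated mean lay at 11.1% for Tap2, 14.4% for Nlrc5, 17.8% for Psmb8, 43.7% for Psmb9, 48.6% for Psmb10 and 73.6% for Tap1. On the tested probe sets, stimulated naive-derived cells thus lay nearest to stimulated memory-derived cells in Tap2, Nlrc5 and Psmb8. They lay farthest from them, of these 6 genes, in Tap1. The other Tap1 probe set above the filter level gave another order. Its means were 2.69 and 2.24 in memory-derived cells without and with stimulation, and 2.76 and 2.20 in naive-derived cells. The second Psmb8 probe set kept the order, with means of 4.43 and 3.58, and of 4.12 and 3.60. The difference between genes was not tested. In none of the 6 did the naive-derived neighbours in this order differ past the threshold. Tapbp had its highest mean in naive-derived unstimulated cells. B2m was lowest in naive-derived stimulated and Erap1 in memory-derived unstimulated cells.

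Of 26 further class I genes tested, 4 rose and 4 fell in stimulated memory-derived cells, with a median difference of 0.00. This is 8 of 26, beside 31.6% of all genes. Among those that fell was Tapbpl, a tapasin-related peptide editor, which stood at 5.92, 5.76 and 5.86 without and at 5.06, 4.84 and 5.11 with stimulation (-0.85, SE 0.13, adjusted p = 0.000805). H2-M3, a nonclassical class I heavy chain that presents formylated peptides, fell by 0.65 on the log2 scale (adjusted p = 0.00525), Blmh, the cytosolic protease bleomycin hydrolase, by 0.45 (adjusted p = 0.0263) and Pdia3, the disulfide isomerase ERp57 of the loading complex, by 0.41 (adjusted p = 0.0279). The calls of Blmh and Pdia3 each failed in 4 of the 11 fits on 10 arrays and with control scaling (adjusted p = 0.158 and 0.168). With the mean of all probe sets Blmh stood at -0.14 and Pdia3 at -0.13. The genes that rose were Hspa5, the chaperone BiP, at 1.52 (adjusted p = 0.00079), the cytosolic peptidases Lap3 at 1.47 (adjusted p = 0.00259) and Thop1 at 1.15 (adjusted p = 0.000587), and Sec61a1, a translocon subunit, at 0.37 (adjusted p = 0.0433), which failed in 8 of 11 such fits and with the replicate block (0.37, adjusted p = 0.0631). The heavy chain genes H2-K1 (-0.15, adjusted p = 0.417) and H2-D1 (-0.28, adjusted p = 0.111) did not pass, although H2-D1 did with array weights (-0.29, adjusted p = 0.0354). Their family is nearly identical in sequence, so the probe sets may not tell its members apart.

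In the other comparisons 0 of the 26 genes passed for stimulation of naive-derived cells in limma, beside 0.0135% of all genes. At an unadjusted p below 0.05 there was 1 of the 26, beside 1252 of all 14795 genes. Between unstimulated origins 4 were higher in naive-derived cells, Hspa5 (1.68), Lap3 (1.50), Thop1 (1.18) and Sec61a1 (0.53), and 1 lower, H2-Q10 (-1.86), which is 5 of 26 beside 25.8% of all genes. Sec61a1 was lost there without naive-derived unstimulated array 1 (0.47, adjusted p = 0.121) or 2 (0.58, adjusted p = 0.0685), and with control scaling (adjusted p = 0.159). H2-Q10, another class I gene of the near-identical family, was also the only one to pass between stimulated origins (-1.89, adjusted p = 0.000245). Of all genes 3.7% passed there. H2-Q10 stood between 5.60 and 5.86 on all 6 memory-derived arrays and between 3.37 and 4.11 on all 5 naive-derived ones. In the interaction 2.71% of all genes passed. Thop1 passed in the interaction (-1.08, adjusted p = 0.044), which failed in 10 of the 11 fits on 10 arrays and with the replicate block (-1.06, adjusted p = 0.0862).

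Genes that act upstream of the members are known from interferon gamma signalling and from the factors that bind class I promoters. Of 22 such regulators tested, 2 rose and 9 fell in stimulated memory-derived cells, where 14.3% of all genes rose and 17.3% fell. Irf1, an interferon-induced transcription factor of class I and immunoproteasome genes, fell from 5.79, 5.77 and 6.57 to 4.25, 4.15 and 4.22 (-1.83, SE 0.20, adjusted p = 0.000169). Ifngr1, the ligand-binding chain of the interferon gamma receptor, went from 7.21, 6.69 and 7.10 to 4.69, 4.47 and 4.36 (-2.49, SE 0.20, adjusted p = 3.83e-05). Creb1, a factor that binds cyclic AMP response elements, went from 5.54, 5.50 and 6.05 to 4.15, 3.86 and 3.90 (-1.72, adjusted p = 7.81e-05), and Jak1, a kinase at that receptor, differed by -1.13 (adjusted p = 0.00254). For these 4 genes the groups did not overlap, where 24.7% of all genes were lower in this way. Creb1 was measured by 6 probe sets. Over the alternative fits its difference ran from -1.82 to -0.80 and passed in each.

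Falls were smaller for Irf2 (-0.86, adjusted p = 0.000814), Ezh2, a histone methyltransferase (-0.63, adjusted p = 0.0132), Ep300, a histone acetyltransferase (-0.58, adjusted p = 0.0248), Irf9 (-0.49, adjusted p = 0.014) and Rfx5, a subunit of the regulatory factor X complex on class I and II promoters (-0.49, adjusted p = 0.00641). Some of these calls leaned on 1 array. Ep300 was lost without memory-derived unstimulated array 3 (-0.43, adjusted p = 0.0877) or memory-derived stimulated array 1 (-0.58, adjusted p = 0.0624) or 2 (-0.46, adjusted p = 0.104). Irf9 was lost without memory-derived stimulated array 2 (adjusted p = 0.0548) or 3 (adjusted p = 0.0579), and Ezh2 without array 2 of that group (adjusted p = 0.0541). With control scaling Irf9 (adjusted p = 0.0983) and Rfx5 (adjusted p = 0.0794) did not pass. Jak2, the other kinase at the interferon gamma receptor, rose from 6.18, 6.17 and 5.96 to 8.11, 8.10 and 8.46 (2.12, SE 0.19, adjusted p = 5.78e-05). Irf8 rose by 1.16 (adjusted p = 0.0446), and leaving out 1 array ended that call in 10 of 11 cases, as did the replicate block (1.16, adjusted p = 0.0575). Without memory-derived unstimulated array 3 Irf8 stood at 0.58. Ifng itself stood at 12.55, 11.99 and 8.16 without and 12.73, 12.22 and 12.22 with stimulation (1.49, adjusted p = 0.218). Its low value was on memory-derived unstimulated array 3, and without that array Ifng differed by 0.12. On the same array Psmb8, Psmb9, Psmb10, Tap1, Tap2, Tapbp and Irf1 were at their highest of the 11, and without it 6 of the 9 members fell, all but Nlrc5 of the 7.

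**Figure D4:**
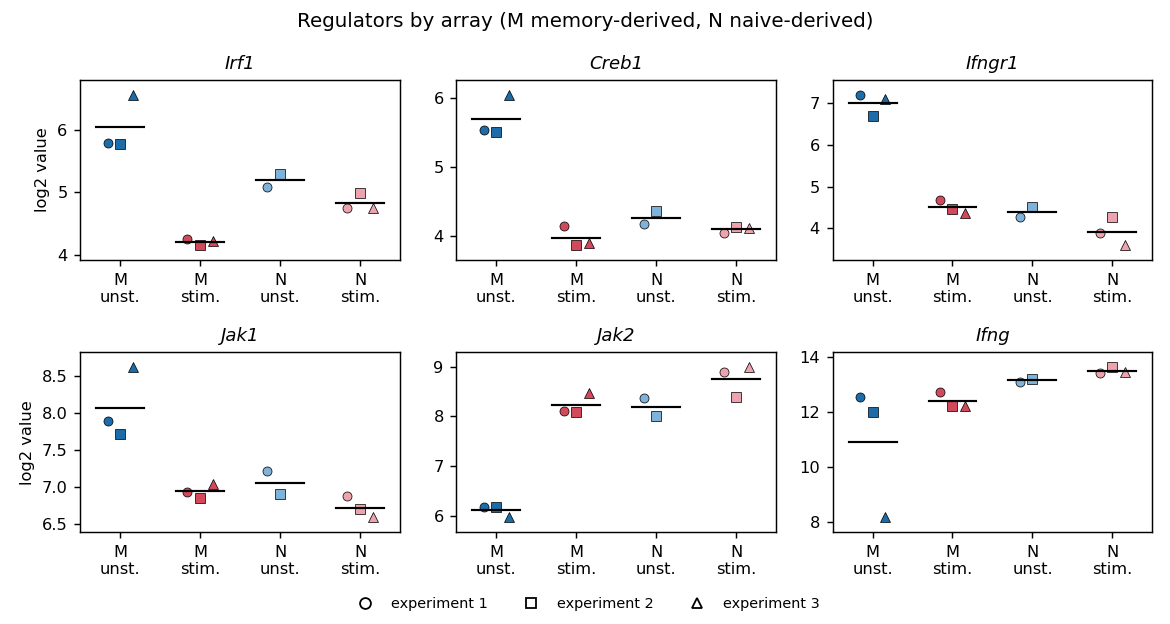
Log2 value of 6 regulators (vertical axes, each panel with its own range) on every array, by group as in the plot of the 9 genes; marker shapes give the experiment and bars the group mean. Irf1 lies at 5.77 to 6.57 on memory-derived unstimulated arrays and at 4.15 to 5.30 on the others, and Ifng at 8.16 on 1 array.

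Between origins the regulators, like all genes, passed mostly without stimulation. Of all genes 25.8% passed without stimulation and 3.7% with it. In unstimulated naive-derived cells 5 were lower than in memory-derived ones: Ifngr1 (-2.61, adjusted p = 7.77e-05), Creb1 (-1.43, adjusted p = 0.000489), Jak1 (-1.01, adjusted p = 0.01), Irf2 (-0.93, adjusted p = 0.00137) and Irf1 (-0.85, adjusted p = 0.0172). Jak2 (2.08, adjusted p = 0.000184) and Irf8 (1.60, adjusted p = 0.0219) were higher. Of all genes 14.9% were lower and 10.9% higher. Without naive-derived unstimulated array 1 the calls of Irf1 (-0.74, adjusted p = 0.121) and Irf8 (1.34, adjusted p = 0.151) were lost. Without array 2 of that group those of Irf1 (-0.96, adjusted p = 0.0577), Irf8 (1.86, adjusted p = 0.0596) and Jak1 (-0.86, adjusted p = 0.0927) were. The replicate block ended that of Irf8 (1.45, adjusted p = 0.0556). Between stimulated origins 0 of the 22 passed in limma, with Irf1 at 0.62 (adjusted p = 0.131). At an unadjusted p below 0.05 there were 7 of the 22, beside 2418 of all 14795 genes. Irf1 passed without memory-derived unstimulated array 3 (adjusted p = 0.0138) and with array weights (adjusted p = 0.0392). For stimulation of naive-derived cells 0 of the 22 passed, beside 0.0135% of all genes. There 2 of the 22 had an unadjusted p below 0.05, beside 1252 of all 14795 genes. The interaction, in which 2.71% of all genes passed, did so for Ifngr1 (2.02), Creb1 (1.55), Irf1 (1.47), Rfx5 (0.72) and Jak2 (-1.54). Their adjusted p were 0.0171, 0.0207, 0.0365, 0.044 and 0.0268. Leaving out 1 array ended these calls in 3, 5, 8, 9 and 7 of 11 cases. With the replicate block none of the 5 passed, at 2.08, 1.50, 1.39, 0.73 and -1.60, with adjusted p of 0.052, 0.0568, 0.0772, 0.0904 and 0.0568. Over the alternative fits Creb1 ran from -1.53 to -0.53 between unstimulated origins and from 0.70 to 1.65 in the interaction.

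To find genes with a like pattern, the values of each member were standardized over the 11 arrays and averaged. Pearson's r of single members with this mean was 0.86 to 0.96 for the immunoproteasome subunits, 0.94 for Tap1, 0.91 for Tap2, 0.93 for Tapbp, 0.82 for Nlrc5, 0.62 for B2m and -0.42 for Erap1. Each member is itself part of this mean, which raises its r. The other genes are not part of it. Among all other tested genes the 5 most like it, over 11 arrays that share 4 groups, were Igtp (0.97), Fut8 (0.96), Rtp4 (0.96), Irgm1 (0.96) and Parp12 (0.96). Igtp stood at 7.09, 7.68 and 7.62 in memory-derived unstimulated cells and at 5.09, 5.30 and 5.26 once stimulated, and at 6.88 and 7.23, then 6.27, 6.34 and 6.25, in naive-derived cells. The 5 least like it were Idi1 (-0.97), Chst11 (-0.96), Cnnm4 (-0.95), Cxcl2 (-0.95) and Plpp2 (-0.95). Cxcl2, a chemokine gene, stood at 1.30, 1.15 and 1.26 in memory-derived unstimulated and at 4.44, 4.21 and 4.44 in memory-derived stimulated cells.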

How the data were processed

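RNA from 11 cultures was labelled with the 3' one-cycle kit, per the labels' protocols, and hybridized to Affymetrix arrays. Affymetrix Expression Console is named in the submitters' processing notes; the summarization method is not given in the sources used here. The deposited values were taken as log10: the base is not given in the sources used here, and was inferred from the spiked controls bioB, bioC and bioD, whose mean deposited values were 1.38, 1.87 and 2.58. The cre control stepped more steeply. All 11 deposited columns hold the same sorted values, from 0 to 4.56, so the arrays had been quantile normalized.

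Values were multiplied by 3.32 to give log2. The 64 control probe sets were left out. Of the others, 34945 carried a single symbol, 932 more than 1, and 9160 are unnamed here. Of those with 1 symbol, 34741 had a gene identifier that matched the RefSeq gene table, and 0 symbols changed. Each gene was represented by its probe set of highest mean, and 14795 of 18193 genes lay above the 40th percentile (1.54) on at least 2 arrays and were tested. Group means of the 4 groups were estimated from the 11 arrays together in limma 3.58.1 (lmFit, eBayes; 7 residual and 3.86 prior degrees of freedom) in R 4.3.3, two-sided, with Benjamini-Hochberg adjustment over all genes tested in a comparison and a threshold of 0.05. The procedure was tested on simulated data. Python 3.11.15 and matplotlib 3.10.9 drew the figures.

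Replicate numbers are experiment numbers, per the labels, so they pair arrays across groups. Deviations from the group means correlated at -0.07 to 0.11 within an experiment (median 0.03, 15 pairs) and at -0.13 to 0.11 between experiments (30 pairs). The model has no block, and the blocked value stands beside a result where it ended a call.

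The 9 genes, the lists around them and the alternatives were chosen with earlier results of these data known. Genes were named by a rule: the 9 members always, other genes of both lists where they passed or were a member's counterpart, and the 5 genes most like and least like the members' mean profile. Single genes of the lists that did not pass are named where a passage turns on them. Protein sequences were not used here. A motif that was also searched is not reported here. The alternatives were the experiment as a fixed or random block, scaling to 18 hybridization control probe sets, no filter, other uses of probe sets, another prior, array weights, experiments 1 and 2 only, and leaving out each array.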

Additional observations from a re-analysis of the deposited data

Results flagged for a closer look

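The response to the final stimulation passed as different between origins, by the test of that difference itself, for 3 of the 9 genes. Of all genes 2.71% passed. The naive-derived minus memory-derived response was 1.06 for Psmb8 (adjusted p = 0.0455), 1.44 for Psmb9 (adjusted p = 0.0258) and 1.14 for Psmb10 (adjusted p = 0.0252) on the log2 scale in limma. With the replicate block, control scaling or experiments 1 and 2 only, 0 members passed. The same held without any 1 memory-derived stimulated array. The second Psmb8 probe set gave 0.33 (adjusted p = 0.399). Psmb8, Psmb9 and Psmb10 fell in each of 3 experiments in memory-derived cells. In naive-derived cells they were lower in both experiments that had the pair of arrays, by -0.12 and -0.25 for Psmb8, -0.27 and -0.33 for Psmb9 and -0.40 and -0.18 for Psmb10. No group had the 4 arrays needed to look for a single outlying array.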

How the results depend on the processing

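The members called numbered 7 for stimulation of memory-derived cells (6 to 7 without 1 array) and 0 for stimulation of naive-derived cells (0 to 0). They numbered 3 for origin without stimulation (0 to 4), 4 for origin with it (0 to 4) and 3 for the interaction (0 to 4). With scaling to the hybridization controls these last 3 counts were 1, 1 and 0. With a trended, robust prior the count for origin without stimulation was 5. With experiments 1 and 2 only it was 1, and the interaction had 0. With the replicate block the interaction had 0. The block ended the calls named in the report, and no other call of the 9 genes.

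Over all genes, 4675 passed for stimulation of memory-derived cells (3437 to 4739 without 1 array), 3035 with control scaling, 7608 with every probe set as a feature and 2755 with experiments 1 and 2 only. For stimulation of naive-derived cells 2 passed (0 to 5), 0 with the replicate block or without the filter, 1 with control scaling or experiments 1 and 2 only, and 13 with the trended prior. For origin without stimulation 3819 passed (1843 to 4161), 2407 with control scaling and 6073 with every probe set. For origin with stimulation 548 passed (287 to 701), and 258 with experiments 1 and 2 only. For the interaction 401 passed (0 to 1505), 26 with the replicate block, 146 with control scaling, 174 without the filter, 1120 with the trended prior, 1486 with array weights and 49 with experiments 1 and 2 only.

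Signs turned in a few uncalled differences. For stimulation of memory-derived cells Psmb6 stood at -0.032 with experiments 1 and 2 only and ran from -0.011 (without memory-derived unstimulated array 3) to 0.093 when 1 array was left out. For stimulation of naive-derived cells Erap1 stood at -0.083 with the mean of its probe sets. For origin without stimulation, array weights gave 0.020 for Tap1 and 0.095 for Nlrc5. Tap1 stood at 0.069 with experiments 1 and 2 only, and ran from -0.39 to 0.069 (without memory-derived unstimulated array 3) when 1 array was left out. The cause was not tested. The number of arrays limits the precision, and 1 group has 2. The comparison of protein sequences was not run.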

Other observations

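Probe sets of 1 gene did not always give the same picture. The B2m probe set of highest mean separated naive-derived unstimulated from stimulated arrays by 0.55, while the other stood between 11.03 and 11.17 on all 5. The second Erap1 probe set was highest on the 2 naive-derived unstimulated arrays (5.69 and 5.62), whereas the first was highest on naive-derived stimulated array 3 (6.69). Over memory-derived unstimulated arrays, where 6 of the 9 members had their highest mean, the weights estimated from all genes were 2.53, 0.63 and 0.32 for arrays 1, 2 and 3.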
